A study of Danio rerio with 9 samples.

Results

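The 30 most abundant long non-coding RNAs (lncRNAs) of the zebrafish caudal fin were the 30 transcripts with the highest mean deposited level over all 9 libraries, out of 4494 in the lncRNA table. Long non-coding RNAs are transcripts that are not read as protein, and many of those studied act in the nucleus on chromatin or transcription or in the cytoplasm on other RNAs. A cut zebrafish fin closes its wound with epidermis, builds a blastema of proliferating cells beneath it and then grows new bony rays and the tissue around them. Wild-type zebrafish (Danio rerio) from a recirculating system gave 3 libraries of intact caudal fins (the controls, labelled CK0dpa), 3 of regenerating fins at 3 days after amputation (3 dpa, labelled T3dpa) and 3 at 7 days after amputation (7 dpa, labelled T7dpa). The sources used here give neither strain, age and sex nor the number of fish per library. The p-values below therefore rest on the spread between libraries, which may be technical.

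Of the 30, 23 carried an ENSDART identifier and are called annotated, and 7 carried a TCONS identifier and are called assembled (23.3%). Assembled lncRNAs made up 11.75% of all 4494 in the lncRNA table and 28.7% of the 1671 that were tested. Whether the 30 held more or fewer of them thus depended on the set compared. The name tables matched 0 of the 30, so they are described by identifier, with no gene name, position, sequence or role, and the fin was not checked against marker genes here. Levels are the deposited values, whose unit was not stated. Whether they are per length is therefore unknown, and so is the sequencing depth. The order between transcripts holds on this scale only. Transcripts of the same locus can share reads, so the 30 may not be independent of each other.

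The levels fell off steeply within the 30. The mean over the 9 libraries was 2613 for the most abundant, TCONS_00025683, 628 for the seventh, ENSDART00000175169, and 143 for the eighth, ENSDART00000174439. It was 26.94 for the last inside the limit, ENSDART00000153298, and 26.93 for the first outside it, ENSDART00000158920. The 30 were chosen on this mean, so their level and their share of the total are descriptions and were not tested.

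Together the 30 made up 83.5% ± 1.3 (SD, n = 3) of all lncRNA signal in the intact group, 80.6% ± 2.0 in the 3 dpa group and 82.6% ± 1.7 in the 7 dpa group. The values per library were 82.2%, 83.5% and 84.8% in intact fin, 78.4%, 82.1% and 81.2% at 3 dpa, and 80.5%, 83.7% and 83.4% at 7 dpa. The lowest shares were those of replicate 1 in each group, and the 7 dpa range overlapped with both others, while 3 dpa ended just below intact fin. Between 3 and 5 transcripts made up 50% of the total of a library, and 93 to 154 made up 90%. Of the 30 most abundant lncRNAs of each single library, 25 to 28 were among these 30.

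The makeup of that share moved more than its size. TCONS_00025683 alone took 22.9% ± 2.4 (SD, n = 3) of the lncRNA signal before amputation, 11.5% ± 1.0 by 3 dpa and 16.7% ± 1.6 by 7 dpa. The lncRNAs of ranks 2 to 7 took 52.9% ± 0.66, 62.0% ± 2.7 and 57.8% ± 3.1 in the same order. Their summed level was 9590 ± 863, 6855 ± 929 and 8386 ± 1294, so it was lowest at 3 dpa, where their share was highest. Shares are parts of the same total, so a smaller share of TCONS_00025683 raises those of the others. The lncRNAs of ranks 8 to 30 held 7.77% ± 0.95, 7.10% ± 0.51 and 7.99% ± 0.53. No library at 3 dpa reached the TCONS_00025683 share of any other library, with 10.3% to 12.1% against 20.1% to 24.8% in intact fin and 15.7% to 18.6% at 7 dpa.

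**Figure D1:**
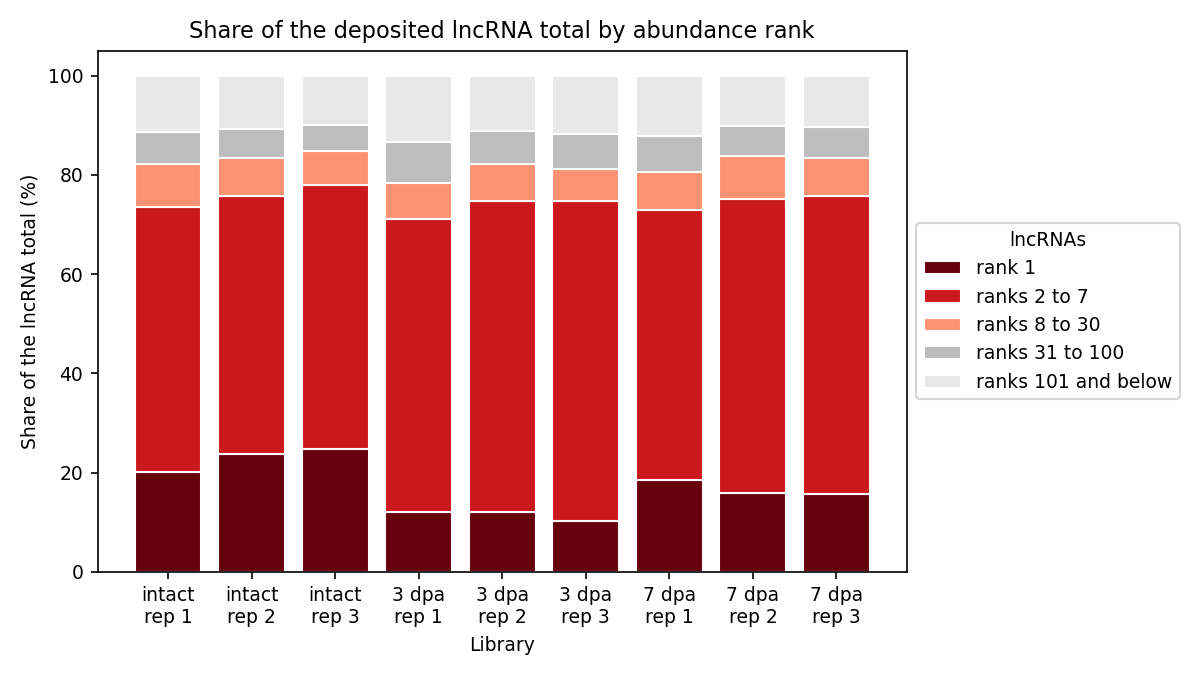
Share of the lncRNA total (%, vertical axis) held by lncRNAs of 5 abundance bands in each of the 9 libraries (horizontal axis). Each bar is 1 library, and the dark band of the most abundant lncRNA is 20.1% to 24.8% in intact fin and 10.3% to 12.1% at 3 dpa.

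Summed over the 30, the level was 15164 ± 1633 (SD, n = 3) before amputation, 8902 ± 1110 by 3 dpa and 11944 ± 1501 by 7 dpa. All other lncRNAs together stood at 2985 ± 90.0, 2131 ± 19.9 and 2504 ± 32.8. The spread between libraries of a group lay mostly in the 30, since their SD was over 10 times that of the others in every group. Of the difference of -7116 in the mean lncRNA total between 3 dpa and intact fin, the 30 made up 88.0% and TCONS_00025683 alone 40.9%. Of the difference of -3701 between 7 dpa and intact fin they made up 87.0% and 48.0%. The 30 already held 83.5% of the intact fin signal and TCONS_00025683 22.9%. The parts of the 30 were thus near their share, and those of TCONS_00025683 were above its own. The lncRNA total is itself a sum of deposited values, and a change in the cells that make these RNAs cannot be told apart from a change in RNA per cell in such bulk samples.

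Setting 3 dpa against intact fin asks how these lncRNAs stand early in regrowth. Of the 30, 17 fell and 1 rose, with limma fitted on log2(level + 0.1) of 1671 lncRNAs and calls at a Benjamini-Hochberg adjusted p under 0.05. Over all 1671, 15.2% fell and 3.65% rose, together 18.9%. The 3 dpa and intact libraries did not overlap for 22 of the 30, against 36.4% of all tested. The median log2 change was -0.71 over the 30, -0.38 over the 70 lncRNAs of ranks 31 to 100 and -0.45 over all tested. The last value depended on the constant added before the log. With 1 or 0.01 in place of 0.1, the median over all tested was -0.161 or -0.586, and that over the 30 was -0.702 or -0.71. Calls covered 60% of the 30, 44.3% of ranks 31 to 100 and 16.9% of those below. The median spread within groups (SD of log2 level) was 0.305, 0.203 and 0.629 in the same bands. The part of this spread in the counts of calls was not tested. Without limma's trend setting, 10 of the 30 and 257 of the 1671 were called.

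The count of falls depended on how libraries were scaled. Factors of the lncRNA table itself (trimmed mean of M values, TMM) moved the median of all tested lncRNAs from -0.45 to -0.05, and on that scale 5 of the 30 fell and 3 rose, where 105 of the 1671 tested fell and 105 rose. Factors of the mRNA table left 13 falls and 1 rise among the 30, and 207 falls and 70 rises among all tested. The changes of TCONS_00025683, ENSDART00000179623, ENSDART00000155541, TCONS_00052095, ENSDART00000160090 and ENSDART00000153298 passed the test both as deposited and with lncRNA factors, and the other 12 calls at 3 dpa were lost with them. After division by the lncRNA total of each library, TCONS_00025683 and ENSDART00000155541 were the falls that still passed and ENSDART00000153298 was among 3 rises, where 68 of all tested fell and 124 rose. Whether the 2 tables were scaled together was not stated, so a fall shared by most lncRNAs and a scaling of this table cannot be told apart.

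TCONS_00025683 had levels of 3277, 4399 and 4851 in intact fins, 1181, 1456 and 1155 at 3 dpa, and 2354, 2460 and 2389 at 7 dpa. The groups did not overlap: the intact fin libraries were highest, those at 3 dpa lowest and those at 7 dpa close together between them. It fell by 1.71 on the log2 scale at 3 dpa (SE 0.18, limma adjusted p = 0.000121) and to 30.3% of its intact fin mean. Relative to the lncRNA factors the fall was 1.17 (log2 change -1.17, limma adjusted p = 0.000969). It was the most abundant lncRNA in each intact fin library and ranked 2, 3 and 4 in the libraries at 3 dpa.

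The other 3 assembled lncRNAs with neighbouring numbers, TCONS_00025684, TCONS_00025686 and TCONS_00025687, were also among the 30. TCONS_00025685 was in neither the lncRNA nor the mRNA table, and the files give no positions, so whether the 4 share a locus or reads is unknown. TCONS_00025687 had levels of 102, 74.8 and 88.7 in intact fins, 45.1, 45.9 and 31.2 at 3 dpa, and 59.7, 86.2 and 99.5 at 7 dpa. TCONS_00025684 had 81.8, 58.3 and 34.6, then 22.5, 18.0 and 19.7, then 54.3, 33.8 and 39.4. In both, every library at 3 dpa lay below every intact fin library, while 7 dpa and intact fin overlapped. The log2 changes at 3 dpa were -1.13 for TCONS_00025687 (SE 0.22, limma adjusted p = 0.00531) and -1.45 for TCONS_00025684 (SE 0.28, limma adjusted p = 0.00483). The 3 dpa mean of TCONS_00025684, 20.07, was below the 26.94 of the last member. TCONS_00025684 thus entered the 30 through intact fin and 7 dpa, a choice that favours a low 3 dpa level.

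TCONS_00025686 had levels of 29.4, 65.3 and 69.97 in intact fins, 33.4, 15.98 and 19.8 at 3 dpa, and 56.6, 46.6 and 51.7 at 7 dpa. Replicate 1 of intact fin lay below replicate 1 of 3 dpa, so those groups overlapped. Its fall at 3 dpa passed the test (log2 change -1.22, SE 0.33, limma adjusted p = 0.0262), and the call was lost without replicate 2 or 3 of intact fin or of 3 dpa (limma adjusted p = 0.0784 to 0.0934). With a 3 dpa mean of 23.06, it too entered the 30 through intact fin and 7 dpa, which favours a low 3 dpa level. Together the 4 numbered neighbours took 24.0% ± 2.3 (SD, n = 3) of the lncRNA signal before amputation, 12.2% ± 1.1 by 3 dpa and 17.95% ± 1.7 by 7 dpa, most of it in TCONS_00025683.

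**Figure D2:**
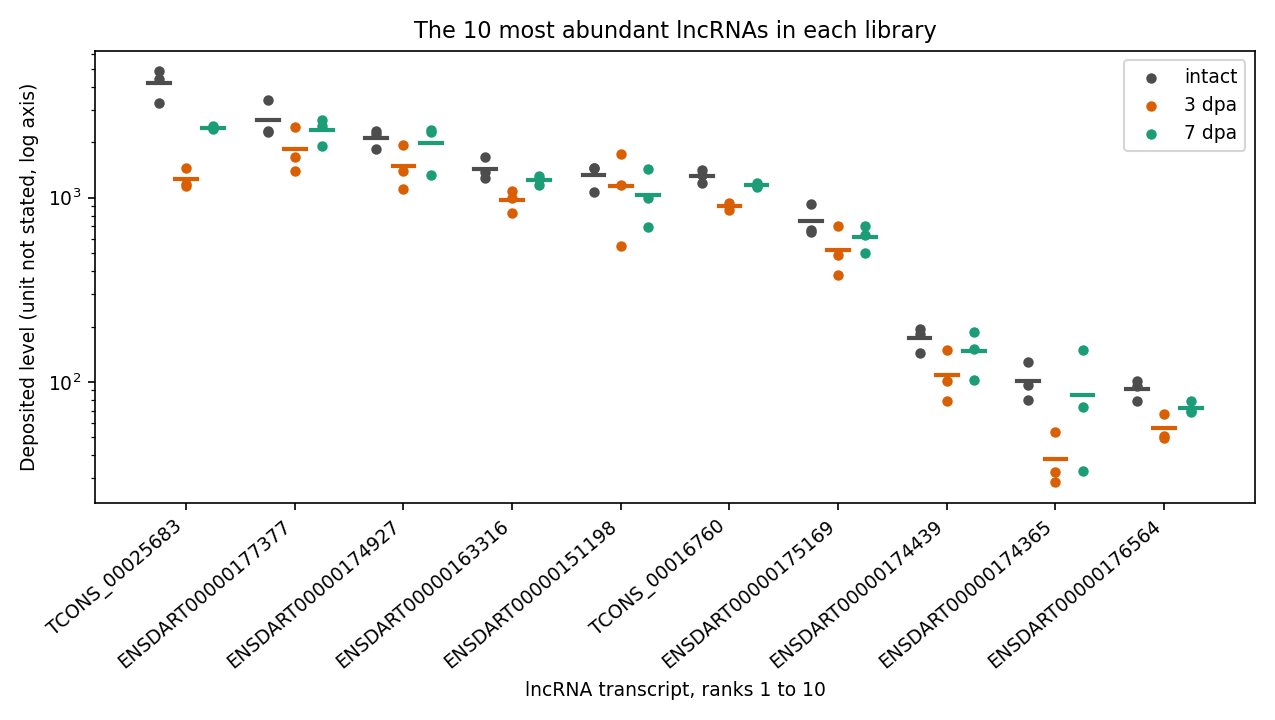
Deposited level (unit not stated, log axis) of the 10 most abundant lncRNAs in each library, with 1 point per library and a line at the mean of 3 libraries, coloured by group. TCONS_00025683 separates the 3 groups, while the points of ENSDART00000177377 and ENSDART00000174927 overlap between groups.

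The lncRNAs of ranks 2, 3, 7 and 8, all annotated, moved together from library to library and did not pass the test at 3 or 7 dpa. ENSDART00000177377 had levels of 2268, 2294 and 3372 in intact fins, 1404, 2433 and 1657 at 3 dpa, and 1901, 2463 and 2648 at 7 dpa. ENSDART00000174927 had 1832, 2203 and 2312, then 1113, 1927 and 1403, then 1328, 2268 and 2342. In both, replicate 2 of 3 dpa reached the range of intact fin and replicates 1 and 3 lay below it. ENSDART00000175169 had levels of 653, 671 and 924 in intact fins, 382, 699 and 488 at 3 dpa, and 500, 629 and 703 at 7 dpa. ENSDART00000174439 had 143, 182 and 195, then 78.6, 149 and 101.25, then 103, 150 and 187. The same libraries were high and low as for the first pair, with replicate 1 lowest at 3 dpa and at 7 dpa in all 4.

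Ratios between these 4 changed less than the levels, which changed by more than 2-fold, and they changed least within 2 pairs. The level of ENSDART00000177377 relative to that of ENSDART00000175169 stayed between 3.40 and 3.92 in the 9 libraries, although each of the levels spanned 2.40-fold and 2.42-fold. That of ENSDART00000174927 relative to ENSDART00000174439 stayed between 11.9 and 15.1. Of the 435 pairs among the 30, these had the smallest SDs of the log2 ratio, 0.07 and 0.11. The median over all pairs was 0.56. The other pairs among the 4 had SDs of 0.16 to 0.17, with ratios that spanned 1.33-fold to 1.475-fold. Some pairs with members outside the 4 were closer than that, such as ENSDART00000163316 and TCONS_00016760 with an SD of 0.13. A ratio within a library removes any factor common to the library. These pairs were picked by their values, so the SDs are descriptions with no test, and the pairs share libraries and possibly reads. At 3 dpa replicate 2 was the highest library for 19 of the 30 lncRNAs (63.3%), and for 38.9% of 432 others with a group mean of at least 1.

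**Figure D3:**
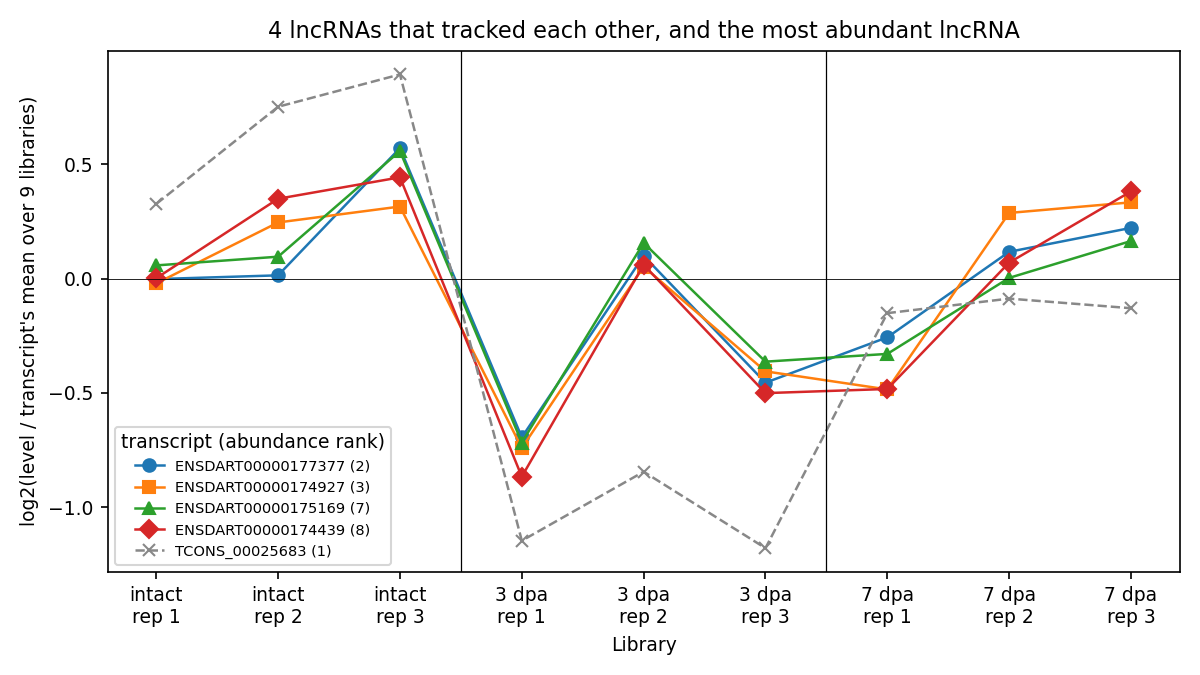
log2 of the level over the transcript's mean of 9 libraries (vertical axis) in each library (horizontal axis) for the lncRNAs of ranks 2, 3, 7 and 8 and, dashed, of rank 1. Lines only join the points of a transcript, since replicates have no order. The 4 solid lines run together, with replicate 2 highest among the 3 dpa libraries.

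The levels of the lncRNAs of ranks 4 and 6 also kept close to each other, with a ratio of 0.914 to 1.27 over the 9 libraries. ENSDART00000163316 had levels of 1274, 1653 and 1387 in intact fins, 828, 1083 and 997 at 3 dpa, and 1263, 1176 and 1310 at 7 dpa. TCONS_00016760 had 1200, 1421 and 1333, then 906, 856 and 939, then 1207, 1163 and 1143. Every 3 dpa library lay below every library of the other groups in both, and 7 dpa overlapped with intact fin. The falls at 3 dpa were small, with a log2 change of -0.57 for ENSDART00000163316 (SE 0.16, limma adjusted p = 0.0295) and -0.55 for TCONS_00016760 (SE 0.13, limma adjusted p = 0.0160). With lncRNA factors the changes were -0.03 and 0.00, and after division by the lncRNA total they turned to 0.15 and 0.17, with the calls lost on both scales. The call of ENSDART00000163316 was also lost without replicate 2 or 3 of intact fin or 1 or 3 of 3 dpa (limma adjusted p = 0.0567 to 0.115), and that of TCONS_00016760 without replicate 2 of intact fin (limma adjusted p = 0.0663) or 3 of 3 dpa (limma adjusted p = 0.0530).

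ENSDART00000151198, the fifth in level, varied most between libraries of 3 dpa among the 30. It had levels of 1455, 1448 and 1071 in intact fins, 1167, 548 and 1736 at 3 dpa, and 694, 1431 and 990 at 7 dpa. The 3 groups overlapped, and replicates 2 and 3 of 3 dpa were its lowest and highest libraries of all 9. It did not pass the test in any comparison. In replicate 3 of 3 dpa it was the most abundant lncRNA.

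ENSDART00000155541 had the largest fall of the 30. Its levels were 56.1, 120 and 32.2 in intact fins, 7.94, 5.98 and 3.00 at 3 dpa, and 35.4, 28.7 and 49.5 at 7 dpa. The 3 dpa libraries lay far below all 6 others, and 7 dpa overlapped with intact fin, where the libraries differed by 3.73-fold. The log2 change at 3 dpa was -3.50 (SE 0.45, limma adjusted p = 0.000405), which left 8.12% of the intact fin mean. With lncRNA factors the log2 change was -2.96 (limma adjusted p = 0.00180). It ranked 9 to 30 in the intact fin libraries, 80, 110 and 203 in those of 3 dpa and 16 to 30 in those of 7 dpa. It thus entered the 30 through intact fin and 7 dpa, a choice that favours a low 3 dpa level.

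ENSDART00000179623 fell to a level that hardly varied between the 3 dpa libraries. It had 68.0, 63.5 and 80.8 in intact fins, 28.95, 29.2 and 29.9 at 3 dpa, and 75.7, 45.5 and 53.6 at 7 dpa. The 3 dpa libraries were below all others, and 7 dpa overlapped with intact fin. The log2 change at 3 dpa was -1.26 (SE 0.18, limma adjusted p = 0.000893), and -0.72 with lncRNA factors (limma adjusted p = 0.0385).

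ENSDART00000160090 and TCONS_00052095 fell at 3 dpa and were still lower at 7 dpa. ENSDART00000160090 had levels of 40.6, 42.0 and 43.4 in intact fins, 18.3, 19.1 and 19.7 at 3 dpa, and 24.0, 27.2 and 25.1 at 7 dpa. TCONS_00052095 had 45.8, 43.8 and 36.9, then 19.2, 22.5 and 17.6, then 23.9, 23.0 and 30.9. The groups did not overlap in either, with 7 dpa between the others. At 3 dpa the log2 change was -1.14 for ENSDART00000160090 (SE 0.12, limma adjusted p = 0.000121) and -1.09 for TCONS_00052095 (SE 0.16, limma adjusted p = 0.00102). With lncRNA factors these were -0.60 (limma adjusted p = 0.00821) and -0.55 (limma adjusted p = 0.0464). The means at 3 and 7 dpa were 19.05 and 25.42 for ENSDART00000160090, and 19.77 and 25.92 for TCONS_00052095. All lay below the 26.94 of the last member. Both lncRNAs thus entered the 30 through intact fin, a choice that favours a fall at either time.

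ENSDART00000153298 was the single lncRNA of the 30 called higher than in intact fin on the deposited scale. It had levels of 13.1, 9.92 and 7.35 in intact fins, 34.0, 40.2 and 35.5 at 3 dpa, and 38.4, 36.8 and 27.2 at 7 dpa. All 6 libraries of regenerating fins lay above the 3 of intact fins, and both times overlapped with each other. The log2 change at 3 dpa was 1.88 (SE 0.21, limma adjusted p = 0.000174) and the mean was 361% of that in intact fin. With lncRNA factors it was 2.42 (limma adjusted p = 9.92e-05). It ranked 65, 89 and 124 in the intact fin libraries and 15 or 16 in those of 3 dpa. It thus entered the 30 through the regenerating fins, a choice that favours a rise from intact fin. Its place as the last member depended on a difference in mean level of under 0.01 from the next transcript.

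**Figure D4:**
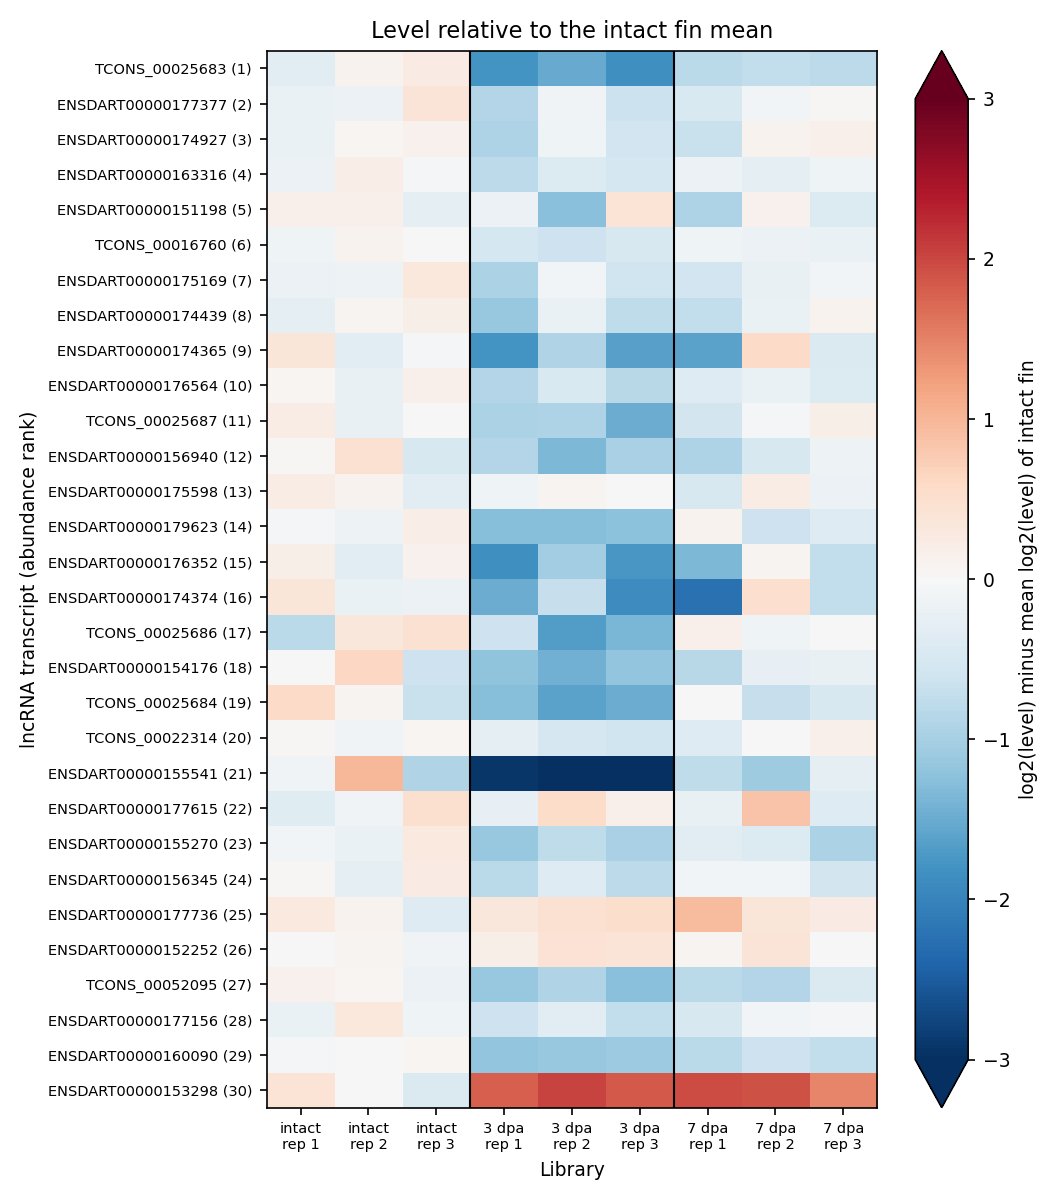
log2 of the deposited level minus the mean log2 level of intact fin for the 30 lncRNAs (rows, in order of abundance) in the 9 libraries (columns, with vertical lines between groups). Blue is lower and red higher, and colours end at ±3. Most rows are bluest at 3 dpa, and ENSDART00000153298 is red in all 6 libraries of regenerating fins.

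The remaining falls at 3 dpa were in annotated lncRNAs of ranks 9 to 24. Among them, ENSDART00000176352, ENSDART00000154176, ENSDART00000155270 and ENSDART00000156345 had 3 dpa means of 25.6, 22.69, 25.34 and 26.7. These means were below the 26.94 of the last member. The lncRNAs with these means thus entered the 30 through intact fin and 7 dpa, a choice that favours a low 3 dpa level. ENSDART00000174365 had levels of 129, 80.1 and 96.4 in intact fins, 28.7, 53.6 and 32.5 at 3 dpa, and 32.9, 149 and 73.4 at 7 dpa. ENSDART00000176352 had 82.0, 58.1 and 78.9, then 20.2, 35.0 and 21.6, then 28.5, 76.3 and 43.5. In both, replicate 2 was the highest library at 3 dpa and at 7 dpa, and the 3 dpa libraries lay below all of intact fin. The log2 change at 3 dpa was -1.54 for ENSDART00000176352 (SE 0.33, limma adjusted p = 0.00817) and -1.44 for ENSDART00000174365 (SE 0.45, limma adjusted p = 0.0462). The second call was lost without any of 6 libraries, all 3 of intact fin, replicates 1 and 3 of 3 dpa and replicate 3 of 7 dpa (limma adjusted p = 0.0608 to 0.139).

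ENSDART00000156940 and ENSDART00000154176 were highest in replicate 2 of intact fin and kept a ratio of 1.22 to 1.78 over the 9 libraries. ENSDART00000156940 had levels of 79.0, 106 and 55.7 in intact fins, 42.4, 30.7 and 39.8 at 3 dpa, and 41.1, 56.1 and 70.3 at 7 dpa. ENSDART00000154176 had 55.3, 84.0 and 35.3, then 23.8, 20.1 and 24.2, then 30.8, 45.9 and 47.2. The 3 dpa libraries were below those of intact fin, and 7 dpa overlapped with intact fin. The log2 changes at 3 dpa were -1.06 (SE 0.26, limma adjusted p = 0.0146) and -1.27 (SE 0.28, limma adjusted p = 0.00976). The call of ENSDART00000156940 was lost without replicate 2 of intact fin (limma adjusted p = 0.0535) or of 3 dpa (limma adjusted p = 0.0525).

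ENSDART00000176564, ENSDART00000155270 and ENSDART00000156345 had the mildest of these falls, with 3 dpa below intact fin in every library. ENSDART00000176564 had levels of 95.3, 78.7 and 102 in intact fins, 49.9, 66.9 and 51.1 at 3 dpa, and 69.4, 79.2 and 69.1 at 7 dpa. ENSDART00000155270 had 45.9, 42.5 and 59.5, then 22.2, 28.9 and 24.9, then 39.0, 36.6 and 25.1. ENSDART00000156345 had 42.9, 34.6 and 49.3, then 23.9, 31.8 and 24.4, then 39.4, 39.4 and 28.4. At 7 dpa ENSDART00000155270 was still below intact fin in every library, without passing the test, and the others overlapped with it. The log2 changes at 3 dpa were -0.72, -0.95 and -0.66 (limma adjusted p = 0.0105, 0.00736 and 0.0337, SE 0.16, 0.20 and 0.19). The call of ENSDART00000156345 was lost without replicate 1 or 3 of intact fin or of 3 dpa (limma adjusted p = 0.0857 to 0.113), and all 3 calls were lost with lncRNA factors (limma adjusted p = 0.257 to 0.775). The sign turned for ENSDART00000176564 with quantile normalization (0.19) and for ENSDART00000156345 after division by the lncRNA total (0.059).

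Of the 12 that did not pass at 3 dpa, 5 were ENSDART00000151198 and the 4 that tracked each other. The other 7 had group means between 25.96 and 69.1 in intact fin and 23.3 and 57.9 at 3 dpa, and 4 of them are named here after their values were seen. ENSDART00000177736 had levels of 31.04, 27.3 and 19.5 in intact fins, 32.1, 35.0 and 36.9 at 3 dpa, and 49.1, 32.9 and 30.3 at 7 dpa. ENSDART00000152252 had 27.3, 28.8 and 25.1, then 30.5, 36.6 and 35.4, then 28.4, 35.3 and 26.8. In both, every 3 dpa library lay above every intact fin library, and both passed as higher at 3 dpa when lncRNA factors were used. The intact fin mean of ENSDART00000177736, 25.96, was below the 26.94 of the last member, and that of ENSDART00000152252, 27.04, just above it. ENSDART00000177736 thus entered the 30 through the regenerating fins, a choice that favours a rise. ENSDART00000174374 had the widest spread at 7 dpa, with 14.4, 96.3 and 40.8. Its 3 dpa levels were 24.4, 42.0 and 18.3, all below its levels of 87.7, 59.3 and 60.4 in intact fin. ENSDART00000175598 had a mean of 59.2 in intact fin and 57.9 at 3 dpa, and its groups overlapped.

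Setting 7 dpa against intact fin asks which differences remained later, and it uses the same intact fin libraries. Of the 30, 3 fell and 1 rose, where 3.29% of the 1671 tested fell and 1.92% rose, together 5.21%. The 7 dpa and intact libraries did not overlap for 5 of the 30 (24.2% of all tested). ENSDART00000153298 was higher by 1.77 on the log2 scale (SE 0.21, limma adjusted p = 0.00162). Its entry into the 30 through the regenerating fins favours such a rise. ENSDART00000160090 had a log2 change of -0.72 (SE 0.12, limma adjusted p = 0.00790). TCONS_00025683 had -0.78 (SE 0.18, limma adjusted p = 0.0290) and stood at 57.5% of its intact fin mean. TCONS_00052095 had -0.71 (SE 0.16, limma adjusted p = 0.0319). The entry of ENSDART00000160090 and TCONS_00052095 into the 30 through intact fin favours such falls.

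With lncRNA factors the rise of ENSDART00000153298 was the call left at 7 dpa among the 30, where 18 of all tested fell and 35 rose. The number called was 2 without replicate 2 of intact fin or replicate 1 or 2 of 7 dpa. The call of TCONS_00025683 was lost without replicate 2 or 3 of intact fin, 3 of 3 dpa or any replicate of 7 dpa (limma adjusted p = 0.0578 to 0.109). That of TCONS_00052095 was lost without replicate 1 or 2 of intact fin, 1 of 3 dpa, or 1 or 2 of 7 dpa (limma adjusted p = 0.0522 to 0.107).

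**Figure D5:**
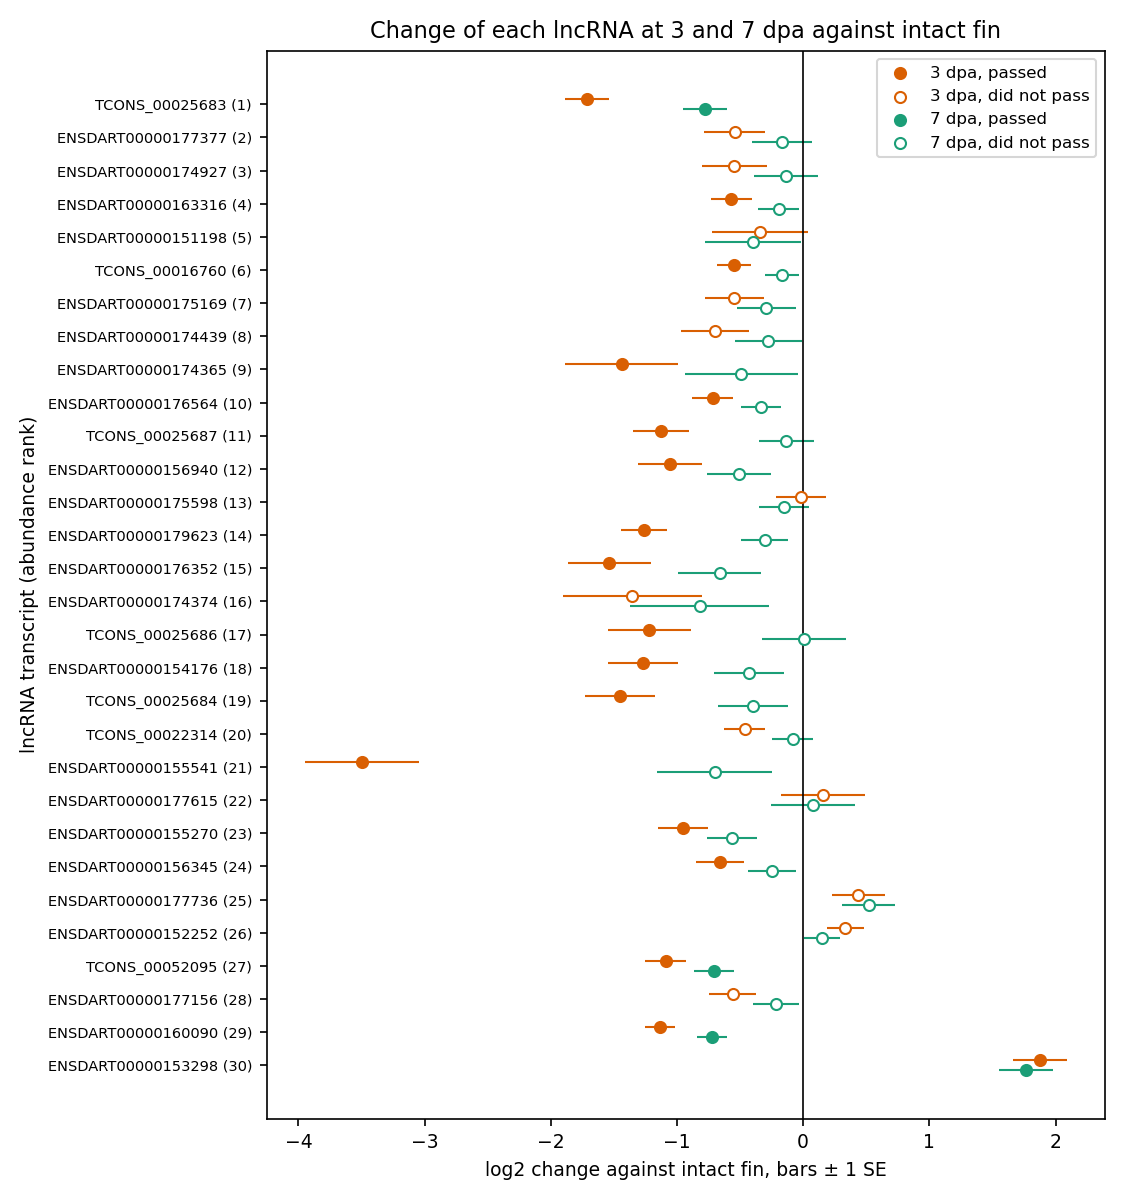
log2 change of the 30 lncRNAs against intact fin (horizontal axis, bars ± 1 SE from limma) at 3 dpa and 7 dpa, in order of abundance. Filled points passed an adjusted p under 0.05 and open points did not. Most points at 7 dpa lie nearer to 0 than those at 3 dpa. Both times share the intact fin libraries.

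The direct comparison of 7 dpa with 3 dpa asks which of the 30 moved between the times. TCONS_00025683, TCONS_00025687, ENSDART00000179623 and ENSDART00000155541 were higher at 7 dpa and 0 were lower, where 2.03% of all tested were higher and 0.239% lower, together 2.27%. The 2 groups did not overlap for 12 of the 30 (21.8% of all tested). ENSDART00000155541 rose by 2.79 on the log2 scale (SE 0.45, limma adjusted p = 0.00975). Its entry into the 30 through intact fin and 7 dpa favours such a rise. The changes were 0.93 for TCONS_00025683 (SE 0.18, limma adjusted p = 0.0233), 0.95 for ENSDART00000179623 (SE 0.18, limma adjusted p = 0.0260) and 1.00 for TCONS_00025687 (SE 0.22, limma adjusted p = 0.0432). Of these, ENSDART00000155541 kept its call with lncRNA factors (log2 change 2.52, limma adjusted p = 0.0229). On that scale 18 of all tested were higher and 10 lower. The number called was 1 without replicate 1 or 3 of 3 dpa or 3 of 7 dpa, and 2 without replicate 2 of 3 dpa or replicate 1 or 2 of 7 dpa. Without limma's trend setting all 4 calls were lost, that of ENSDART00000155541 at an adjusted p of 0.0622.

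On the deposited scale the order of the group means was intact fin, then 7 dpa, then 3 dpa for 24 of the 30 lncRNAs (80.0%). It was the same for 60.0% of the 70 lncRNAs of ranks 31 to 100 and for 38.8% of all tested. Of the other 6, ENSDART00000151198 and ENSDART00000175598 had their lowest mean at 7 dpa. ENSDART00000177615, ENSDART00000152252 and ENSDART00000153298 were highest at 3 dpa, and ENSDART00000177736 was highest at 7 dpa. When levels were divided by the lncRNA total of the library, the median log2 change of the 30 at 3 dpa was 0.01, and 15 had a lower and 15 a higher value than in intact fin. The 30 make up most of that total, so this setting sets them largely against themselves. After division by the total without the 30, the median at 3 dpa was -0.22, and it was -0.17 with lncRNA factors. On both scales 23 were lower and 7 higher at 3 dpa, and 16 were lower and 14 higher at 7 dpa. With mRNA factors the median at 3 dpa was -0.58, with 25 lower and 5 higher at both times. Over all tested, the median at 3 dpa was -0.09 after division by the total without the 30, -0.045 with lncRNA factors and -0.362 with mRNA factors. Over ranks 31 to 100 it was 0.099, 0.156 and -0.255 in the same order.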

How the data were processed

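Per the labels' protocols, total RNA was fragmented and primed at random, with dUTP in the second strand. Per the submitters' processing notes the tools included cutadapt, TopHat2 2.0.3.12 and RSEM, with no role given, and the build named is hg38, a human genome. The sources used here name no zebrafish build, and coordinates were not needed. The deposited lncRNA and mRNA tables give each transcript 1 signal value in every library. These are not counts, so depth is unknown.

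The 30 lncRNAs with the highest mean over 9 libraries were taken, and limma 3.58.1 in R 4.3.3 (trend and robust settings) was fitted on log2(value + 0.1) of lncRNAs at 0.1 or more in at least 3 libraries, with all 9 libraries, 3 group means and no covariate. Tests were two-sided and adjusted over 1671 lncRNAs. TMM factors were computed unweighted. The fit was tested on simulated data. Figures used Python 3.11.15. The members, lists and tests were chosen with earlier results of these data known. The 10 most abundant and all called members are named, beside those a count singles out after their values were seen. The mRNA table served for scaling only, and circRNAs were not used. Alternatives changed pseudocount, filter, scaling, fit, block, libraries left out and the rule for members.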

Additional observations from a re-analysis of the deposited data

Results flagged for a closer look

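For 4 of the 30 lncRNAs the 7 dpa and 3 dpa changes from intact fin were unequal by limma's test of 7 dpa against 3 dpa. On the log2 scale 7 dpa exceeded 3 dpa by 0.933 in TCONS_00025683 (limma adjusted p = 0.0233), 0.995 for TCONS_00025687 (limma adjusted p = 0.0432), 0.953 for ENSDART00000179623 (limma adjusted p = 0.0260) and 2.79 for ENSDART00000155541 (limma adjusted p = 0.00975). In each, all 3 libraries at 7 dpa lay above all 3 at 3 dpa. Without single libraries of 3 or 7 dpa, the call of TCONS_00025683 was lost in 5 cases (limma adjusted p = 0.0584 to 0.0910) and that of ENSDART00000179623 in 5 (0.0537 to 0.0809). The call of TCONS_00025687 was lost in 7 cases, 2 of them without an intact fin library (0.0565 to 0.147). That of ENSDART00000155541 kept its side of the threshold without each of the 9 libraries (limma adjusted p up to 0.0484). However, this lncRNA entered the 30 through intact fin and 7 dpa, a choice that favours a low 3 dpa level.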

How the results depend on the processing

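Depth is unknown, and with 3 libraries per group the calls near the threshold moved with single libraries. At 3 dpa against intact fin, 18 of the 30 were called. The number was 8 with lncRNA TMM factors (3 higher, 5 lower) and 8 with quantile normalization (4 and 4). It was 5 after division by the lncRNA total (3 and 2, so the majority turned). After division by that total without the 30 it was 8 (3 and 5). Division by the mRNA plus lncRNA total left 15 (1 and 14). It was 10 without the trend and 28 for the 50 most abundant. It was 13 to 21 with 1 library left out. Over all lncRNAs 315 were called (61 higher, 254 lower). That was 210 with lncRNA factors (105 and 105), 277 with mRNA factors (70 and 207) and 216 with quantile normalization (112 and 104). After division by the total it was 192 (124 and 68). Division by that total without the 30 left 212, and division by the mRNA plus lncRNA total left 282. It was 257 without the trend and 225 to 308 with 1 library left out. At 7 dpa against intact fin 4 were called, and all 4 still passed after division by the mRNA plus lncRNA total. The number was 1, higher, with lncRNA factors, quantile normalization, either division by a lncRNA total or without the trend. With only the groups compared or with members chosen by median it was 2. It was 7 for the 50 most abundant and 2 to 4 with 1 library left out. Over all lncRNAs 87 became 53 (35 and 18), 62 (42 and 20), 36 (28 and 8) and 52 (34 and 18) under the same 4 scalings, 48 with only the groups compared, 35 without the trend, 47 with the replicate block and 24 to 69 with 1 library left out. Between 7 and 3 dpa 4 were called, and of these TCONS_00025687 was lost after division by the mRNA plus lncRNA total. The number was 1 with lncRNA factors or either division by a lncRNA total, and 3 with quantile normalization (1 and 2). It was 2 with a pseudocount of 1 or the replicate block, and 1 to 4 with 1 library left out. Without the trend limma called 0 of the 30 and 0 of all lncRNAs, where 7 and 244 had an unadjusted p under 0.05. Over all lncRNAs 38 became 73 at a filter of at least 1, 19 after division by the total, 19 with the replicate block and 18 to 39 with 1 library left out. No other tool was run. Quantile normalization fixes the values at the top ranks, and division by the total sets the 30 against themselves. What moved the counts was not tested, for these or for the other settings. Of the changes called at 3 dpa, those of 4 lncRNAs turned sign under a setting without passing the test. After division by the total, they were 0.15 for ENSDART00000163316, 0.17 for TCONS_00016760 and 0.059 for ENSDART00000156345. With quantile normalization they were 0.073 for TCONS_00016760 and 0.19 for ENSDART00000176564. The share of the lncRNA total was 86.0%, 83.8% and 85.5% for the 50 most abundant and 78.6%, 78.0% and 79.0% without TCONS_00025683 in intact fin, 3 dpa and 7 dpa. With 1 library left out it was 82.8% to 84.1%, 79.6% to 81.5% and 81.9% to 83.5%. Members by median shared 28 with the 30. Deviations of libraries with the same replicate number had r = -0.045 to 0.05, and those with different numbers had r = -0.05 to 0.065. Noise in low levels can hide a pairing, so these values cannot decide whether the numbers pair the samples. Among the 30, replicate 1 gave the lowest value for 17 lncRNAs in the 3 dpa group, 16 in the 7 dpa group and 11 in the intact group. These were 56.7%, 53.3% and 36.7% of the 30. Of the other lncRNAs with a group mean of at least 1, it was 35.9%, 36.55% and 42.3%. With the replicate block, 18, 3 and 2 of the 30 were called at 3 dpa, at 7 dpa and between the times, with TCONS_00025686 (limma adjusted p = 0.0536) and ENSDART00000156345 (0.0648) lost and 2 others gained at 3 dpa, TCONS_00052095 (0.0794) at 7 dpa, and TCONS_00025687 (0.0978) and ENSDART00000179623 (0.0509) between the times.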
